A study of Danio rerio with 2 samples.

Results

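Myosin light chains are small proteins that wrap around the neck of each myosin heavy chain. Every myosin head carries an essential light chain, which stabilises the neck, and a regulatory light chain, whose phosphorylation by myosin light chain kinases tunes the force of the motor. Striated and smooth muscle use different light chain genes, so the set of transcripts in a sample reflects the muscle types it holds, and in zebrafish the promoter of the cardiac regulatory chain *myl7* (also called *cmlc2*) is the usual driver of heart reporters.

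The light chain genes were chosen by name and identifier, with earlier results of these data known. The 9 names of the rule, *myl7*, *mylpfa*, *myl4* (with *cmlc1*), *mylpfb*, *myl1* (with *mylz3*), *myl10*, *myl9a*, *myl9b* and *myl6*, corresponded to 11 of the 33396 listed identifiers. The name table listed *cmlc1* and *myl4* as separate genes, and it gave *mylpfa* and *mylpfb* the shared symbol MYL11, so the MYL11 identifier other than that given for *mylpfa* was taken as *mylpfb*. It also gave the symbol MYL1 to a pair of identifiers and the symbol MYL9 to another pair, so these 4 are called here by symbol and identifier. Which MYL9 identifier is *myl9a* and which is *myl9b*, and which MYL1 identifier is *myl1* and which *mylz3*, was not settled by the name table.

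RNA had been sequenced from zebrafish hearts of strain Tu at 72 hpf, as 1 library of wild-type (control) hearts and 1 library of hearts homozygous for *smyd4* L544Efs*1, a frameshift allele made with CRISPR/Cas9. According to the methods the mutants were both maternal and zygotic, the mutants as well as the controls carried a GFP transgene driven by the *cmlc2* promoter in cardiomyocytes, cardiac GFP was used to collect the hearts, and the hearts of many embryos were pooled per library. The authors deposited 1 FPKM value per gene and library, that is, reads scaled by gene length and by the depth of the library. With 1 library per group there was no replicate, so no difference could be set against the spread between hearts and no p-value is given. Intervals for single genes are exact Clopper-Pearson 95% intervals of read ratios. The interval for the fast skeletal to cardiac ratio is a 95% normal approximation on the log scale. Both kinds cover counting error only.

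The library totals worked out from the FPKM values were 18840114 reads for control and 17960132 for the mutant-labelled library. *smyd4* was at 2.42 FPKM in both, with a ratio of mutant to control of 1.00 (interval from 0.760 to 1.32), so its level did not check the labels, and the second library is called the mutant-labelled library throughout. Both libraries, labelled as heart, held abundant epidermal transcripts. The most abundant gene was a keratin in each, *krt1-19e* (37399 FPKM in control against 12627 in the mutant-labelled library) and *krt4* (8063 against 16552). The 12 epidermal markers found, which do not include *krt1-19e*, summed to 21466 and 28898 FPKM, and none was at 0. The direction of this sum rests on single keratins, since it was 58865 and 41526 FPKM with *krt1-19e* and 13403 and 12346 FPKM without *krt4*. In such bulk samples fewer cells of a type and less RNA per cell cannot be told apart.

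In control, the light chain transcripts were mostly those of fast skeletal muscle, and in the mutant-labelled library those of the heart came to the front. The 4 fast skeletal light chain genes summed to 16360 FPKM in control against 3423 FPKM in the mutant-labelled library, which is 4.78-fold lower. The 3 cardiac genes summed to 1944 and 4387 FPKM, which is 2.26-fold higher. Most of this difference was in *myl7*, since the 2 cardiac essential genes summed to 1302 and 1410 FPKM. The 3 smooth and non-muscle genes, in contrast, had nearly the same sum in both on the deposited scale, at 317.1 and 321.1 FPKM. These 3 genes differed in direction, and their sum leaves out the non-muscle chain *myl12.1* (489.8 and 1768 FPKM). All 11 genes together held 2.30% of the summed FPKM of all genes in control and 1.17% in the mutant-labelled library. Their recovered reads, which may be too few for some genes, made up 2.14% and 0.750% of the library totals.

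**Figure D1:**
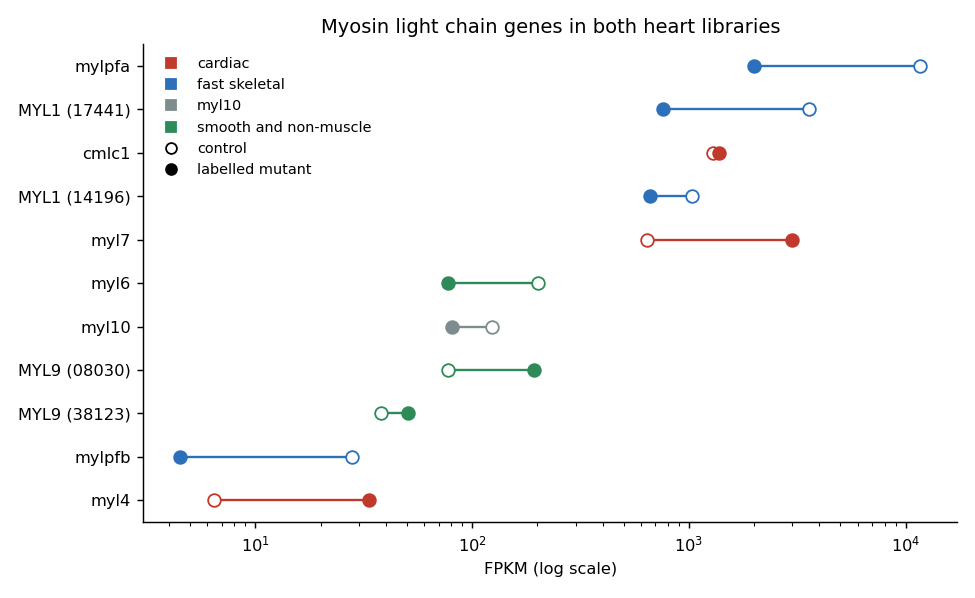
FPKM of the 11 light chain genes on a log axis, with open points for the control library and filled points for the mutant-labelled library, coloured by muscle type. The blue fast skeletal genes lie to the left in the mutant-labelled library, whereas *myl7* and *myl4* (red) lie to the right and *cmlc1* differs little on this scale (1296 and 1377 FPKM).

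For each gene the log2(FPKM + 1) of control was subtracted from that of the mutant-labelled library, and a gene was counted as higher or lower when its difference exceeded 1. This scale understates the change of genes at low levels. Of the 11 light chain genes, all of which had at least 1 FPKM in either library, 3 were higher and 4 were lower. Among all 17800 genes that reached this level, 33.3% were higher and 11.6% were lower. The median difference was -0.61 over the light chain genes and 0.49 over all genes. Scaling between the libraries moved this split. With TMM scaling, in which a trimmed mean of the gene-wise log ratios sets the factor and which brought the median of all genes to 0.05, 2 light chain genes were higher and 6 lower, beside 20.7% and 18.7% of all genes.

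The cardiac regulatory light chain *myl7* (ENSDARG00000019096) was at 642.0 FPKM (8938 reads) in control against 2977 FPKM (39508 reads) in the mutant-labelled library. The level was thus 4.64-fold higher (interval from 4.53 to 4.75), and it remained 3.24-fold higher after TMM scaling. Ordered by FPKM, *myl7* moved from rank 191 to rank 16 of all genes. Its log2 difference of 2.21 exceeded that of 94.1% of the genes tested, its difference relative to the median of all genes was 1.72, and the lowest value in the alternative settings was 1.501 with upper-quartile scaling.

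The cardiac essential light chain *cmlc1* (ENSDARG00000032976), the partner of *myl7* on the cardiac myosin head, did not follow it. It was at 1296 FPKM in control against 1377 FPKM in the mutant-labelled library, a ratio of 1.06 (interval from 1.03 to 1.09). The sign of this small difference turned with the scaling, from 0.09 to -0.43 with TMM. *myl4* (ENSDARG00000011519), which in mammals encodes the atrial and embryonic essential chain, was much less abundant. It was at 6.46 FPKM (146 reads) in control against 33.5 FPKM (721 reads) in the mutant-labelled library. This 5.18-fold difference (interval from 4.33 to 6.23) was close in size to that of *myl7*, and the intervals of both ratios overlapped.

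The balance of the cardiac chains was not the same in both libraries. In control the regulatory chain was at 0.493 times the level of the essential chains, whereas in the mutant-labelled library it was at 2.11 times their level. Most of the essential level came from *cmlc1*, which exceeded *myl4* 200.5-fold in control and 41.1-fold in the mutant-labelled library. These ratios are formed within a library and do not depend on the scaling between the libraries.

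The fast skeletal regulatory light chain *mylpfa* (ENSDARG00000053254) was the most abundant of the 11 genes in control and ranked 8 among all genes there. Its level was 11703 FPKM (306034 reads) in control against 1999 FPKM (49829 reads) in the mutant-labelled library, where it ranked 30. It was 5.85-fold lower (interval from 5.80 to 5.91), and its log2 difference of -2.55 was below that of all but 0.910% of the genes tested and stood at -3.04 relative to the median of all genes. In control it exceeded *myl7* 18.2-fold, and in the mutant-labelled library it stood at 0.672 times the level of *myl7*.

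The second copy of this regulatory chain, *mylpfb* (ENSDARG00000002589), was far less abundant and differed by nearly the same factor. It was at 28.0 FPKM (345 reads) in control against 4.51 FPKM (53 reads) in the mutant-labelled library. This was 6.21-fold lower (interval from 4.64 to 8.45), so the ratio of *mylpfa* to *mylpfb*, 418.0 in control and 443.0 in the mutant-labelled library, hardly changed. As the counting rule is not given in the sources used here, reads of such close copies may have been divided between them.

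The essential light chain of fast skeletal muscle is represented by both MYL1 identifiers, and these did not differ alike. MYL1 ENSDARG00000017441 was at 3593 FPKM in control against 759 FPKM in the mutant-labelled library, 4.74-fold lower (interval from 4.63 to 4.84). MYL1 ENSDARG00000014196 was at 1036 and 661.4 FPKM, 1.57-fold lower (interval from 1.53 to 1.60), and did not pass the threshold, with a log2 difference of -0.65. It passed with TMM scaling (-1.16) and after removal of a trend with gene length (-1.22). The first identifier thus exceeded the second 3.47-fold in control and 1.15-fold in the mutant-labelled library. Over both, the fast skeletal regulatory chains stood at 2.53 times the level of the essential chains in control and at 1.41 times in the mutant-labelled library.

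*myl10* (ENSDARG00000062592), a further gene of the regulatory type, was at 123.6 FPKM in control against 80.5 FPKM in the mutant-labelled library, from 1632 and 1013 reads. Its log2 difference of -0.61 stayed within the threshold on the deposited scale and exceeded it with TMM scaling (-1.12). Its level was low beside *mylpfa* and *myl7*, at 0.659% and 0.980% of the summed light chain FPKM.

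**Figure D2:**
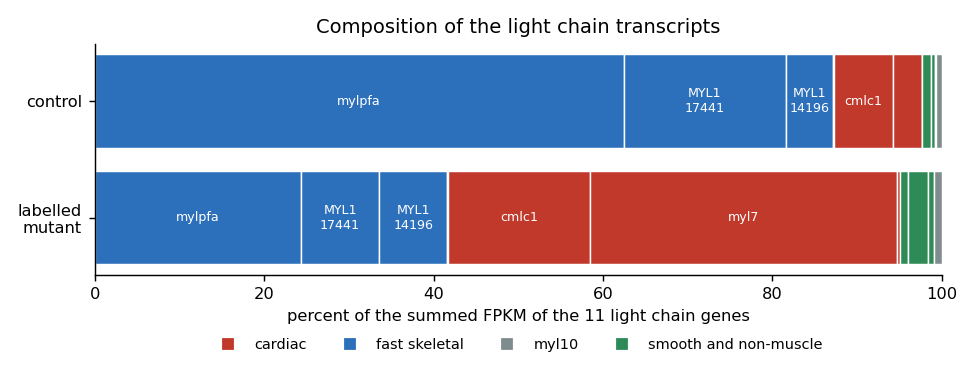
Share of each gene in the summed FPKM of the 11 light chain genes, in percent, for the control library (top) and the mutant-labelled library (bottom). Fast skeletal genes (blue) make up 87.3% in control and 41.7% in the mutant-labelled library, and cardiac genes (red) 10.4% and 53.4%.

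Set against each other within each library, the fast skeletal light chains stood at 8.41 times the level of the cardiac ones in control and at 0.780 times in the mutant-labelled library. The log2 change of this ratio was -3.43, with a counting interval from -3.46 to -3.40, and it was -2.37 without *myl7* and -4.47 without *cmlc1*. *mylpfa* alone made up 62.4% of the summed light chain FPKM in control and 24.3% in the mutant-labelled library, while *myl7* made up 3.42% and 36.2%. The light chain sums of both muscle types thus differed between the libraries. Among the chosen genes, the sarcomeric regulatory chains summed to 2.11 times the essential chains in control and to 1.79 times in the mutant-labelled library. The direction of this last change rests on *cmlc1* and *mylpfa*, since the log2 change of -0.24 became 0.37 without the former and 3.01 without the latter. It was -1.13 without MYL1 ENSDARG00000017441.

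The genes of smooth muscle and non-muscle myosin differed in direction among themselves. The essential chain *myl6* (ENSDARG00000008494) was at 202.2 FPKM (4091 reads) in control against 77.5 FPKM (1494 reads) in the mutant-labelled library, 2.61-fold lower (interval from 2.46 to 2.77). The regulatory chain MYL9 ENSDARG00000008030 was at 77.1 and 193.0 FPKM, 2.503-fold higher (interval from 2.41 to 2.60). Its difference of 1.31 did not pass the threshold with TMM scaling (0.80) or after removal of the length trend (0.78). MYL9 ENSDARG00000038123 was at 37.8 and 50.6 FPKM, with a difference of 0.41 that turned to -0.09 with TMM scaling. Hence the essential chain was lower and neither regulatory chain was lower on the deposited scale.

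**Figure D3:**
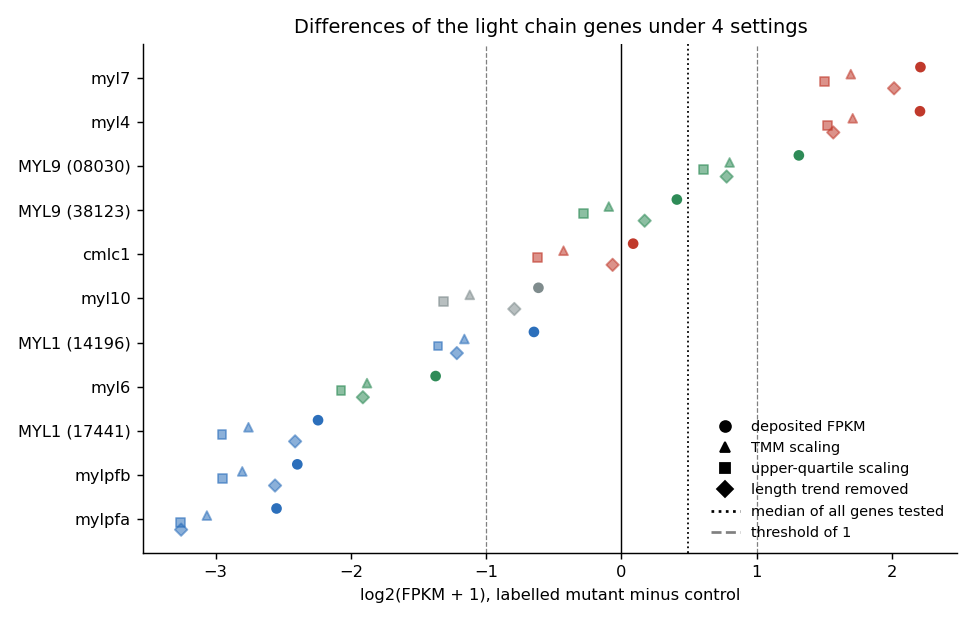
Differences in log2(FPKM + 1), library labelled mutant minus control, for each light chain gene under the deposited scale, TMM scaling, upper-quartile scaling and removal of the length trend. The 3 lowest genes, *mylpfa*, *mylpfb* and MYL1 ENSDARG00000017441, stay below -2, *myl7* and *myl4* stay above 1 in every setting drawn, *myl6* stays below -1, and the other 5 genes cross the threshold (dashed) or 0.

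Other light chain genes were examined from a list of 11 names, of which 4 identifiers outside the members were found. The non-muscle regulatory chain *myl12.1* was higher, at 489.8 FPKM in control against 1768 FPKM in the mutant-labelled library, a ratio of 3.61 (interval from 3.50 to 3.72). *myl13* was lower, at 331.9 and 143.2 FPKM, 2.32-fold. The MYL2 identifiers, whose mammalian counterpart is the ventricular regulatory chain, reached at most 5.002 FPKM in either library. Thus *myl12.1* was more abundant than *myl6* and both MYL9 genes together in either library.

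The light chains bind to the myosin heavy chains. Of 13 sarcomeric heavy chain genes tested, 7 were higher (53.8%, beside 33.3% of all genes) and 0 lower, with a median difference of 1.01. Among the 7, *myhc4* (0.155 and 2.01 FPKM) and *smyhc2* (0.189 and 3.68 FPKM) reached 1 FPKM only in the mutant-labelled library. TMM scaling left 5 higher and 0 lower, beside 20.7% and 18.7% of all genes. The fast skeletal heavy chain *myhz2* was at 17.0 FPKM in control against 118.4 FPKM in the mutant-labelled library, 6.96-fold higher. *myhz1.3*, of the same family, was at 3.11 and 19.9 FPKM. In contrast, *myhz1.1*, the most abundant of these 4 in control, was at 46.1 and 41.9 FPKM and *myhz1.2* at 12.14 and 12.19 FPKM. The symbol of the atrial heavy chain was given to a pair of identifiers. MYH6 ENSDARG00000079564, listed in capitals, was at 15.3 and 52.7 FPKM. The other, ENSDARG00000090637, listed in lower case as *myh6*, was at 30.7 and 28.4 FPKM. Which of these is the atrial gene was not settled by the name table. The listed MYH7 was at 178.9 and 364.8 FPKM. *vmhc*, the ventricular heavy chain, had no match by name, so an identifier listed under another symbol may be this gene. Of 5 smooth and non-muscle heavy chain genes tested, 0 passed the threshold, beside 33.3% higher and 11.6% lower among all genes. Their median difference was -0.16, and with TMM scaling 1 was lower, beside 18.7% of all genes.

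The list of kinases and phosphatases that act on the regulatory light chain also held MYLIP, which is neither. Of the 16 genes tested in this list, 8 were higher (beside 33.3% of all genes) and 1 was lower (beside 11.6%). Among the 8 was MYLIP ENSDARG00000055118, at 9.09 FPKM in control against 31.2 FPKM in the mutant-labelled library. The median difference was 1.02. With TMM scaling 6 were higher and 1 lower, beside 20.7% and 18.7% of all genes. The cardiac light chain kinase *mylk3* (listed as MYLK3) was at 1.63 FPKM in control against 10.3 FPKM in the mutant-labelled library. *dapk3* (DAPK3), which can phosphorylate the regulatory chain, was at 2.29 and 11.9 FPKM, and *mylk5* was at 22.8 and 80.4 FPKM. The lower gene was *ppp1cbl*, similar in name to the catalytic subunit of myosin phosphatase, at 895.3 and 203.1 FPKM. PPP1CB ENSDARG00000044153, listed under the symbol of that subunit itself, was higher, at 71.2 and 213.9 FPKM.

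Of 11 genes for myosin chaperones and their partners, 7 were higher (63.6%, beside 33.3% of all genes) and 1 was lower (9.09%, beside 11.6%). Among the 7, HSPA8 ENSDARG00000037403 (0.534 and 4.09 FPKM) reached 1 FPKM only in the mutant-labelled library. The median difference was 1.45, and TMM scaling left 5 higher and 1 lower, beside 20.7% and 18.7% of all genes. *hsp90aa1.1*, the heat shock protein that assists myosin folding in zebrafish muscle, was at 18.9 FPKM in control against 132.7 FPKM in the mutant-labelled library. *unc45b* (UNC45B), its myosin-specific partner, was at 10.2 and 59.96 FPKM. AHSA1 ENSDARG00000028664, a cochaperone of Hsp90, was at 2.92 and 20.4 FPKM from 17 and 113 reads. The lower gene was SMYD1 ENSDARG00000009280, at 34.5 and 6.99 FPKM. The other identifier with the symbol of this myosin-binding methyltransferase, ENSDARG00000091253, was at 80.5 and 57.6 FPKM. Its difference of -0.48 did not pass the threshold.

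Of 22 cardiomyocyte markers tested, 9 were higher (40.9%, beside 33.3% of all genes) and 1 was lower (4.55%, beside 11.6%). The median difference was 0.67, which is 0.18 relative to the median of all genes. With TMM scaling 7 were higher and 2 lower, beside 20.7% and 18.7% of all genes. After removal of the length trend 12 were higher and 1 lower, beside 18.7% and 20.3% of all genes. The natriuretic peptide gene *nppa*, an atrial hormone, was at 134.9 FPKM in control against 776.4 FPKM in the mutant-labelled library. The heart field transcription factor *hand2* (HAND2) was at 50.4 and 267.9 FPKM, the troponin C gene *tnnc1a* at 34.7 and 157.3 FPKM, and TNNI1 ENSDARG00000052708 at 99.4 and 381.5 FPKM. The lower gene, named because it was the only one, was the actin gene *actc1a*, named for the cardiac form, at 4275 and 1685 FPKM. Whether its transcripts came from heart or skeletal muscle was not tested. With *actc1a* the summed level of the 25 identifiers was 5108 FPKM in control against 4069 FPKM in the mutant-labelled library, and without it 832.5 and 2383 FPKM. A TNNI1 copy was at 0 in control and at only 0.10 FPKM (1 read) in the mutant-labelled library. *nkx2.5* and *vmhc* had no match by name and may be listed under other symbols.

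Of 37 fast skeletal muscle markers tested, 9 were higher (24.3%, beside 33.3% of all genes) and 8 lower (21.6%, beside 11.6%). Among the 9, *myhc4* (0.155 and 2.01 FPKM) and MYF6 (0.147 and 1.78 FPKM) reached 1 FPKM only in the mutant-labelled library. Among the 8, MYBPC2 (2.17 and 0.221 FPKM) reached it only in control. The median difference was -0.25, and TMM scaling left 4 higher and 14 lower, beside 20.7% and 18.7% of all genes. The parvalbumins *pvalb4* and *pvalb1*, calcium buffers of fast fibres, were lower, at 431.9 and 79.7 FPKM and at 717.0 and 138.3 FPKM. These factors of 5.42 and 5.18 lie between those of *mylpfa* and MYL1 ENSDARG00000017441, while *myhz2* and *myhz1.3* of the same list were higher. All 39 identifiers of the list came to 12949 and 6334 FPKM, and none was at 0. The fast skeletal light chains were at 1.26 times the list's sum in control and 0.540 times in the mutant-labelled library. The part of skeletal muscle RNA in the light chain levels was not tested.

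**Figure D4:**
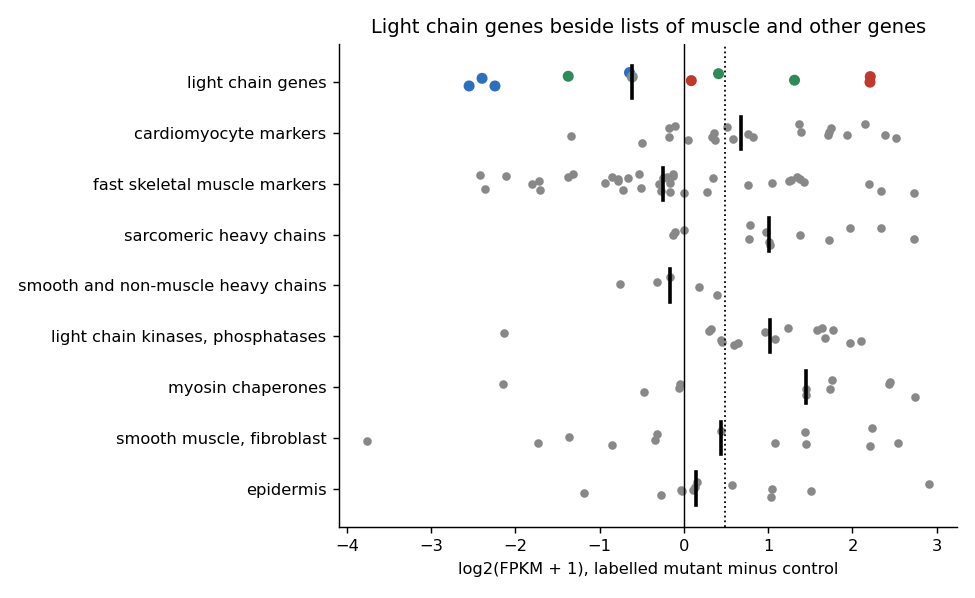
Differences in log2(FPKM + 1), library labelled mutant minus control, for the light chain genes (coloured by muscle type) and for the tested genes of 8 lists (grey), with black bars at the medians and a dotted line at the median of all genes, 0.49. The light chain genes spread from -2.55 to 2.21, and the fast skeletal markers from -2.42 to 2.73 around a median of -0.25.

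Smooth muscle and fibroblast markers were mixed. Of 13 genes tested, 6 were higher (46.2%, beside 33.3% of all genes) and 3 were lower (23.1%, beside 11.6%). Among the 6, LMOD1 ENSDARG00000056111 (0.020 and 1.79 FPKM) and CNN1 ENSDARG00000102398 (0.410 and 1.99 FPKM) reached 1 FPKM only in the mutant-labelled library. The median difference over the 13 genes was 0.44, near the 0.49 of all genes. With TMM scaling 4 went each way, beside 20.7% higher and 18.7% lower among all genes. The list held 1655 FPKM in control against 1013 in the other library, and 465.0 against 655.4 FPKM without the collagen gene *col1a1a*. The smooth muscle gene TAGLN was represented by ENSDARG00000045408, which was at 86.4 and 5.45 FPKM, and by ENSDARG00000033466, at 38.2 and 180.0 FPKM. The proteoglycan genes *dcn* (DCN) and *lum* (LUM) were higher, at 27.5 and 164.9 FPKM and at 30.6 and 147.8 FPKM. The other CNN1 identifier was at 0 in the mutant-labelled library and at only 0.21 FPKM (2 reads) in control. The role of these cells in the levels of *myl6* and the MYL9 genes was not tested.

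The differences varied with gene length. Most light chain genes are short, with 10 of the 11 recovered lengths between 398 and 1388 bases, though a recovered length can be a fraction of the true one. Over all genes, the median difference was 0.16 among genes of up to 840 bases, 0.76 among those of 1285 to 1805 bases and 0.28 among those of 2702 bases or more, so there was no steady rise. Spearman's rho of the difference with length was 0.04 over all 17698 genes with a length and 0.40 over those of the fast skeletal list, which share both libraries and are not independent. After removal of the length trend, 2 light chain genes were higher and 5 lower, beside 18.7% and 20.3% of all genes.

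**Figure D5:**
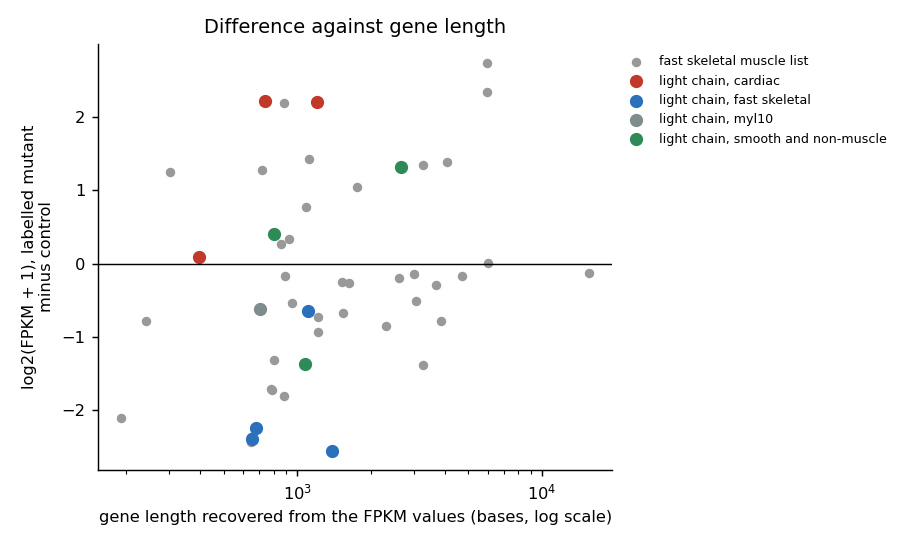
Difference in log2(FPKM + 1) against the gene length recovered from the FPKM values (bases, log scale), for the light chain genes (coloured) and the fast skeletal muscle list (grey). Short genes occur at both ends of the axis of differences, with *myl7* at 2.21 and *mylpfb* at -2.40.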

How the data were processed

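The processed data were 1 table with 1 column per library. The authors deposited FPKM values, a unit inferred from the numbers because no source names it. The submitters' processing notes name Bowtie2 2.0.6 and TopHat2 2.0.9. Reads were aligned to the zebrafish genome. The counting rule, build and annotation are not given in the sources used here, so no coordinates are printed. The member genes and all gene lists were chosen with earlier results of these data known.

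Gene names came from a table that paired 26433 identifiers with symbols. A listed name without a match was looked up without its paralog suffix. Whole reads were recovered from the ratios of the FPKM values, at the smallest library totals not below the sum of the reads. The recovered reads made up 85.1% and 85.0% of the totals, and for some genes they may be a fraction of the true number. The intervals then are too wide rather than too narrow, and shares or ratios formed on reads give such genes too little weight.

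The log2 differences used a pseudocount of 1 FPKM and a threshold of 1, over genes that reached 1 FPKM in one library or both. A gene below 1 FPKM in 1 library thus entered the counts through the other library alone. No test of genotype was possible with 1 library per group. The text names the light chain genes, *smyd4* and, per list, at most the 4 genes that differed most, provided the higher library reached 10 FPKM. Exceptions, named after their values were seen, are *krt1-19e* and *krt4* as the most abundant genes, *actc1a*, *col1a1a*, *hbae3*, *myhz1.1* and *myhz1.2*. Further exceptions of this kind are the other *myh6* and SMYD1 identifiers, single genes at 0, the MYL2 genes, MYL12A and zgc:163073. *myhc4*, *smyhc2*, PPP1CB and MYLIP ENSDARG00000055118 were also named after their values were seen. So were MYF6, MYBPC2, LMOD1 ENSDARG00000056111, CNN1 ENSDARG00000102398 and HSPA8 ENSDARG00000037403. The lists cover other light chains, heavy chains, kinases and phosphatases with MYLIP, chaperones, cardiomyocytes, fast skeletal muscle, smooth muscle with fibroblasts, endothelium, erythrocytes and epidermis.

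The libraries were rescaled by TMM, by upper quartile or by the median of ratios. Other alternatives were a pseudocount of 0.1, no filter, at least 1 FPKM in both libraries, a threshold of 2 and removal of a lowess trend (span 0.3) on length. The ratios were recomputed without their most abundant genes, on reads and, chosen after seeing the data, without *cmlc1*. Read recovery, TMM scaling and the call at the threshold were tested on simulated reads, and the other steps were not. Tools were matplotlib 3.10.9, statsmodels 0.14.6, scipy 1.17.1, pandas 2.3.3 and numpy 2.4.6 under Python 3.11.15.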

Additional observations from a re-analysis of the deposited data

How the results depend on the processing

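With 1 library per group, nothing here measures variation between hearts. The 3 higher and 4 lower light chain genes became 2 and 6 under upper-quartile scaling, beside 16.6% and 22.2% of all genes. They were also 2 and 6 under TMM (beside 20.7% and 18.7%) and median-of-ratios scaling (20.6% and 18.8%). They were 2 and 5 after removal of the length trend (18.7% and 20.3%) and 2 and 3 at a threshold of 2 (8.79% and 2.31%). They stayed at 3 and 4 with a pseudocount of 0.1 (40.4% and 15.5%) and without a filter (23.3% and 8.11%). The same held with at least 1 FPKM in both libraries (32.9% and 10.3%) and without *cmlc1*. The log2 change of the fast skeletal to cardiac ratio, -3.43, was -2.88 without *mylpfa*, -2.37 without *myl7*, -3.78 on reads and -4.47 without *cmlc1*. That of the regulatory to essential ratio, -0.24, was 3.01 without *mylpfa*, -1.13 without MYL1 ENSDARG00000017441, -0.58 on reads and 0.37 without *cmlc1*. That of the smooth and non-muscle to sarcomeric ratio, 1.24, was 2.30 without *myl6*, 0.21 without *mylpfa*, 2.10 on reads and 1.41 without *cmlc1*. No called light chain gene changed sign in the alternatives run, whereas the uncalled *cmlc1* and MYL9 ENSDARG00000038123 did under all 3 scalings, and *cmlc1* also after removal of the length trend. No paired analysis was possible because each group had 1 library.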

Other observations

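A pair of further light chain genes was found neither by the chosen names nor by the names of the list. MYL12A was at 46.7 FPKM in control against 91.5 FPKM in the mutant-labelled library, a log2 difference of 0.96 that is just under the threshold. The gene zgc:163073, for which *myl3* is a synonym in RefSeq, was at 0.215 and 1.46 FPKM from 6 and 39 reads. The list held the name *myl3*, which had no match by symbol.

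Blood and vessel markers were also present in both libraries. Of 13 erythrocyte markers tested, 6 had a higher level (46.2%, beside 33.3% of all genes) and 0 a lower level (beside 11.6%) in the mutant-labelled library. With TMM scaling 3 of them were higher and 2 lower, beside 20.7% and 18.7% of all genes. The median difference was 0.59, and their summed level was 3309 FPKM in control against 2718 FPKM in the mutant-labelled library, but 350.6 against 617.3 FPKM without the globin *hbae3*. The globin names *hbbe1.1*, *hbbe1.2*, *hbbe1.3* and *hbbe2* had no match, so these genes are in neither the counts nor the sum. The embryonic globin *hbbe3* was at 1.82 and 38.3 FPKM, the carbonic anhydrase *cahz* at 37.4 and 135.1 FPKM. Of 11 endothelial markers, 2 were higher (18.2%, beside 33.3% of all genes) and 1 was lower (9.09%, beside 11.6%). With TMM scaling 1 of them went each way, beside 20.7% and 18.7% of all genes. Their median was 0.28. The receptor *tek* was at 21.9 and 3.93 FPKM, whereas *tie1* (TIE1) was at 5.76 and 23.2 FPKM. Of 12 epidermal markers, 4 were higher, the same 33.3% as among all genes, and 1 was lower (8.33%, beside 11.6%). With TMM scaling 1 of them went each way, beside 20.7% and 18.7% of all genes. Their median was 0.15. The cadherin *cdh1* was at 5.88 and 50.8 FPKM and *krt5* at 4915 and 2166 FPKM.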
